A study of Mus musculus with 18 samples.

Results

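NKG2D is an activating receptor of natural killer (NK) cells, and the 10 genes described here encode the receptor, its adaptors and the proteins that act first after it is engaged. They were chosen by name, without a threshold on any value: Klrk1 (NKG2D itself), Hcst (DAP10), Tyrobp (DAP12), the kinases Syk and Zap70, the adaptors Grb2 and Lcp2 (SLP-76), the exchange factor Vav1 and the phospholipases Plcg1 and Plcg2. All 10 were found among the 55487 gene identifiers of the count table, and all 10 passed the filter on low counts that left 14864 genes for testing.

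RNA was sequenced from 18 libraries of mouse splenic NK cells sorted for YFP, 3 libraries in each of 6 groups. Wild-type cells came from Rosa YFP/YFP Ncr1 CRE-ERT2 mice, and knock-out cells from mice that carried, beside these alleles, Acly fl/fl, so that the gene of ATP-citrate lyase can be deleted. Both genotypes therefore carried the tamoxifen-inducible Cre driven by Ncr1, carried the YFP reporter and received tamoxifen diet for 48 hours, with sorting 5 days after its withdrawal. Cells were fresh, primed in IL-15 (100 ng/ml) during 72 hours, or primed and then placed on plate-bound NKG2D at 20 µg/ml for 6 hours; the labels do not say what the plate-bound reagent was. The labels also give neither the age of the mice nor whether a group's 3 libraries come from separate animals, so p-values here measure only library-to-library spread, which may be technical. No group was cultured without IL-15, so IL-15 and 72 hours of culture cannot be told apart. No group had the added 6 hours without plate-bound NKG2D, so the reagent and the added time cannot be told apart. Below, priming and NKG2D name these whole steps.

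As background, NKG2D has no signalling tail of its own and depends on adaptors that pair with it in the membrane. DAP10 carries a motif that recruits PI3-kinase and the Grb2 and Vav1 pair, whereas DAP12 carries an ITAM that recruits Syk and Zap70. In mice NKG2D can use both adaptors, and DAP12 also serves other activating receptors of NK cells. Downstream, SLP-76 and Vav1 help phospholipase C gamma to start the calcium and protein kinase C steps that lead to degranulation and cytokine release.

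RefSeq promoter windows (build GRCm38.p6, 250 bases before to 50 after a start site) matched 9 of the 10 genes by symbol, and Tyrobp had no entry. The windows of Klrk1, Hcst and Syk are shown because the receptor and Syk were higher in primed knock-out cells while Hcst, the neighbour of Tyrobp, was not called. Capitals mark exact matches, on either strand, to 6 motifs: RUNX (TGTGGT), ETS (GGAAGT), T-box (GGTGTGA), STAT (TTCNNNGAA), AP-1 (TGANTCA) and GC box (GGGCGG). No match overlapped another.
Klrk1, chr6:129623815-129624114, minus strand: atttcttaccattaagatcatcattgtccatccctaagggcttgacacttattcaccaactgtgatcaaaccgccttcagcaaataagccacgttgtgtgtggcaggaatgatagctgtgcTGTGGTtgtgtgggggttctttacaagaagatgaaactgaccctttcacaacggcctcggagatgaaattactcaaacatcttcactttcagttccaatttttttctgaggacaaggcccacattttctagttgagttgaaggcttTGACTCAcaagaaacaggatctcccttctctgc
Hcst, chr7:30419805-30420104, minus strand: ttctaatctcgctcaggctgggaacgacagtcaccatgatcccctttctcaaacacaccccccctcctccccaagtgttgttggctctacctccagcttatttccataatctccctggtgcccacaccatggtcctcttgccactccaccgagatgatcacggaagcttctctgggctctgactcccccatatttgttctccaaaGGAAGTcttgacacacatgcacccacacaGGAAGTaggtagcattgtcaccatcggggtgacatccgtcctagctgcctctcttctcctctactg
Syk, first window, chr13:52583187-52583486, plus strand: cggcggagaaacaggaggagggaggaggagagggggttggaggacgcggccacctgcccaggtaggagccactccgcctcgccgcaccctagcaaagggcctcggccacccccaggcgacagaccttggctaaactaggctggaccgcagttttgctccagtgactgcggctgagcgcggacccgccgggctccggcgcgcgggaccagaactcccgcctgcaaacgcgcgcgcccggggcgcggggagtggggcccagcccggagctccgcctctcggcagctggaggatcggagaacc
Syk, second window, chr13:52596632-52596931, plus strand: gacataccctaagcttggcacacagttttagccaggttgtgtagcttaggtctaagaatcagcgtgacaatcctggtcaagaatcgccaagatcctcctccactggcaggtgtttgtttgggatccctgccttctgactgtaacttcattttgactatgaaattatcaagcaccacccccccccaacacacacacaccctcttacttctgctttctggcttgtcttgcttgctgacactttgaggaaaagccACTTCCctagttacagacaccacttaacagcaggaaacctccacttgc
Counting the start site as 0, the Klrk1 window held a RUNX match that begins at position -129 and an AP-1 match at position 17. The Hcst window held ETS matches at positions -45 and -16. The first Syk window held none of the 6 motifs, and the second held an ETS match at position 2. Of all 32851 windows in the table, 16.8% held the RUNX letters, 23.8% the ETS letters, 7.81% the AP-1 letters, 3.98% the T-box letters, 8.3% the STAT letters and 35.7% the GC box. The matches are descriptions of sequence, and whether they are binding sites was not tested.

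Totals per library ran from 14772350 to 34367582 counts. Primed knock-out replicate 1 had the lowest total and 14695 genes with a read, against at least 17877 in each other library, and it had the lowest likeness to its group (Pearson r of 0.93 over 14864 genes). Primed wild-type replicate 3 was the least like its group among the wild-type libraries (r of 0.967 and 0.97 with the other replicates), and results that rest on these libraries are given with and without them. In each condition the knock-out libraries held less Acly than any wild-type library, with log2 differences of -3.72 (fresh), -2.58 (primed) and -2.17 (NKG2D). Within knock-out cells Acly rose on priming from a mean of 18.9 to 42.8 CPM (log2 change 1.17, SE 0.196, adjusted p = 9.37e-05). Its priming response differed between genotypes (1.14, SE 0.271, adjusted p = 0.0131), and the part of this in the results was not tested. All 8 NK cell markers on the list used were detected in every group, with summed levels of 6288 to 20157 CPM (counts scaled to library size). These markers moved with condition and genotype: their sum was 9193 to 10047 CPM in NKG2D wild type and 6288 to 7319 CPM in NKG2D knock-out. From fresh to primed wild type the markers split. The mean of Ncr1 went from 949 to 358 CPM, that of Klrb1c from 1926 to 906 and that of Klre1 from 645 to 394. That of Eomes went from 175 to 68.2 and that of Tbx21 from 64.1 to 15.4 CPM, in the direction that most of the 10 genes took. Klrd1 (669 to 738 CPM), Gzma (9191 to 10774 CPM) and Il2rb (3195 to 3331 CPM) went the other way, with overlapping libraries. In knock-out the means of all 8 were lower in primed than in fresh cells. That of Klrd1 went from 748 to 518 CPM, that of Gzma from 9821 to 8857 and that of Il2rb from 3648 to 2740. The knock-out libraries of Gzma overlapped. The part of these shifts in the results was not tested. In bulk samples such as these, fewer cells of a type and less RNA per cell cannot be told apart.

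Compared per length, as CPM per kb of annotated exon, Tyrobp had the highest level of the 10 genes in all 6 groups and Plcg1 the lowest. In fresh wild-type cells the level was 2133 ± 232 CPM per kb for Tyrobp (SD, n = 3), 328 ± 32.5 for Hcst and 170.0 ± 5.29 for Klrk1. Zap70 followed at 87.7 ± 8.08, then Lcp2 at 67.1 ± 2.87 and Vav1 at 46.3 ± 2.91. The last 4 were Plcg2 at 23.9 ± 2.32, Grb2 at 16.2 ± 1.78, Syk at 9.43 ± 1.27 and Plcg1 at 0.184 ± 0.0266 CPM per kb. The libraries of no 2 neighbours in this order overlapped in either fresh group. In primed knock-out cells and in both NKG2D groups the ranges of Hcst and Klrk1 overlapped, and the same held for Zap70 and Lcp2. With the longest coding transcript as the length instead, Klrk1 stood at 382 and Hcst at 535 CPM per kb in fresh wild-type cells. In every cultured group the mean of Klrk1 was then above that of Hcst, but their libraries overlapped in primed wild type and in NKG2D knock-out. The levels were 259 against 256 in primed wild type and 415 against 325 in primed knock-out. After NKG2D they were 282 against 220 in wild type and 341 against 252 in knock-out.

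**Figure D1:**
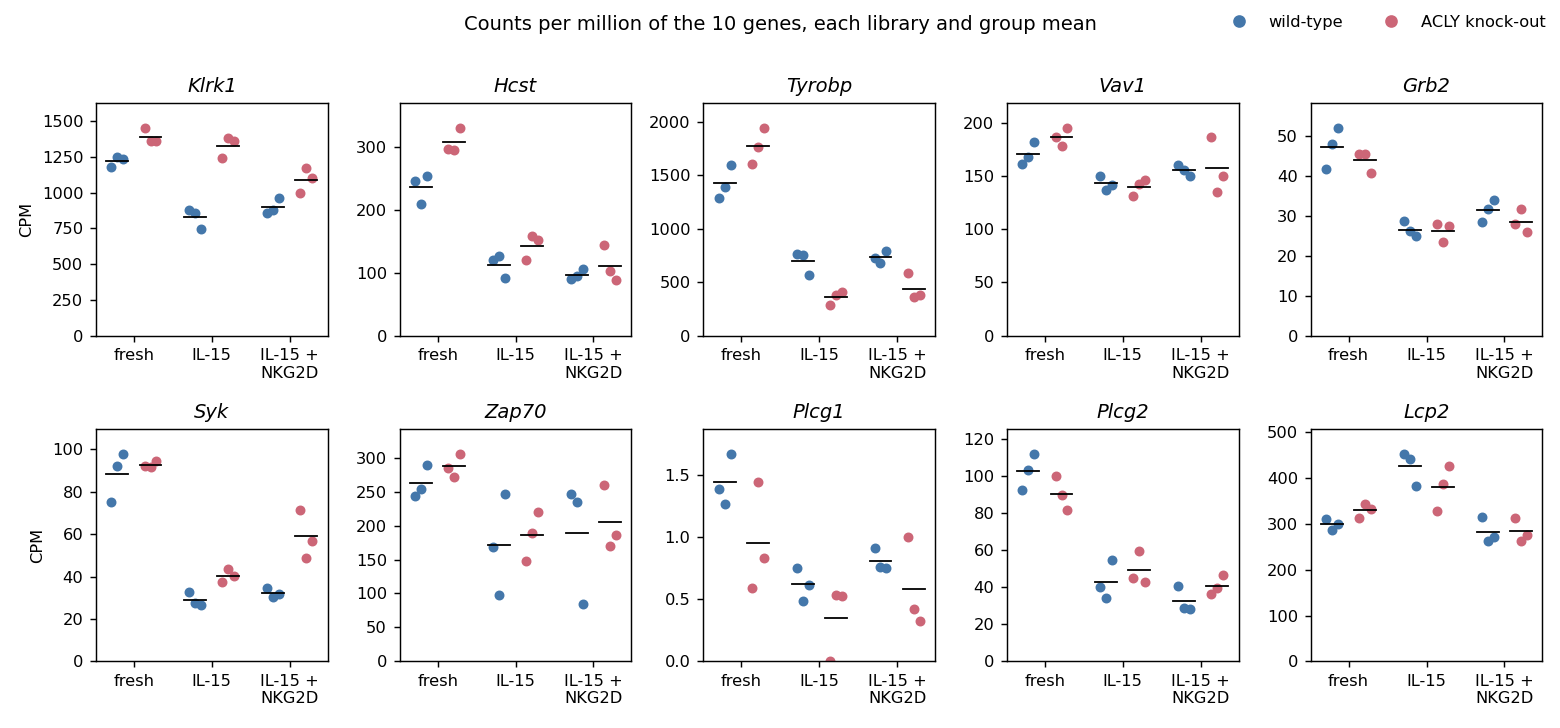
CPM (vertical axes, linear, each from 0) of the 10 genes in the 18 libraries, by condition; blue points are wild-type libraries, red points ACLY knock-out libraries, and black lines group means. Klrk1 stayed between 1244 and 1378 CPM in primed knock-out libraries while the wild-type ones lay between 743 and 881, and Tyrobp showed the opposite order (285 to 411 against 570 to 766).

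Between genotypes, ACLY knock-out cells differed from wild type in the receptor, in 1 adaptor and in 1 kinase, in cultured cells; whether the fresh and NKG2D differences differ was not tested. In primed cells Klrk1 and Syk were higher and Tyrobp lower, 3 of 10 genes against 15.5% of all genes tested (7.0% higher, 8.52% lower). After NKG2D, Syk was higher and Tyrobp lower, 2 of 10 against 18.2% of all genes (8.75% higher, 9.47% lower). In fresh cells edgeR called none of the 10, against 0.0673% of all genes (0.0135% higher, 0.0538% lower). Only 1 of them, Hcst, had an unadjusted p under the threshold, as did 1903 of all 14864 genes. DESeq2 also called 0 of the 10, against 0.922% of all genes. With 10 genes, 3 and 2 calls lie near those shares of all genes, and the number called is not read as a result about the pathway. The median log2 difference of the 10 genes was 0.13 (fresh), 0.05 (primed) and 0.07 (NKG2D), and that of all genes was 0.01, -0.02 and 0.03. Counted by libraries that do not overlap between genotypes, the number was 4 of 10 in fresh cells against 27.0% of all genes, 3 in primed cells against 31.6%, and 3 after NKG2D against 34.8%.

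Klrk1 (chr6:129610323-129623864, minus strand, mm10) encodes the receptor. In fresh cells it measured 1178, 1248 and 1238 CPM in the wild-type libraries and 1453, 1364 and 1359 CPM in the knock-out libraries. After priming it measured 881, 856 and 743 CPM in wild-type libraries and 1244, 1378 and 1359 CPM in knock-out. After NKG2D the wild-type libraries held 859, 882 and 965 CPM and the knock-out libraries 994, 1170 and 1104 CPM. Every knock-out library was thus above every wild-type library of its condition, by a small margin in fresh and NKG2D cells and a wide one in primed cells. In primed cells the log2 difference was 0.68 (SE 0.0933, adjusted p = 0.000119), or 1.61-fold, and it passed the threshold in all 12 alternatives. In fresh cells the log2 difference was 0.19 (95% interval -0.01 to 0.38, adjusted p = 0.411). After NKG2D it was 0.27 (95% interval 0.08 to 0.47, adjusted p = 0.0507); DESeq2, and the fit without NKG2D knock-out replicate 1, placed it past the threshold.

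Between fresh and primed cells, Klrk1 fell in wild type, whereas its change in knock-out did not pass the test. In primed wild-type cells Klrk1 was lower by 0.56 in log2 terms (SE 0.0932, adjusted p = 6.81e-05), at 67.7% of the fresh level. In knock-out cells the log2 change was -0.07 (95% interval -0.26 to 0.13, adjusted p = 0.563). The difference between these responses was 0.49 on the log2 scale (SE 0.131, adjusted p = 0.0233). That call was lost in 6 of 17 alternatives, 5 of them leaving out 1 library (fresh wild-type replicate 2 or 3, fresh knock-out replicate 2 or 3, or primed knock-out replicate 2), with an adjusted p of at most 0.0706. From primed to NKG2D cells Klrk1 fell in knock-out (log2 change -0.28, SE 0.0929, adjusted p = 0.0241). That call was lost in 6 of 11 alternatives, including those without NKG2D knock-out replicate 1 or without primed knock-out replicate 2 or 3 (adjusted p of at most 0.104). The counts are per gene, so transcript forms of Klrk1 that differ in which adaptor their protein binds were not separated.

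Hcst (chr7:30417712-30419854, minus strand) encodes DAP10 and Tyrobp (chr7:30413760-30417585, plus strand) encodes DAP12. The genes are neighbours whose 3′ ends face each other with 126 bases between them, and the sources do not say whether reads were counted by strand. Their transcripts nevertheless took different courses in the knock-out.

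Hcst measured 246, 210.0 and 254 CPM in fresh wild-type libraries and 298, 297 and 331 CPM in fresh knock-out libraries. After priming it measured 120, 128 and 91.9 CPM in wild-type libraries and 120, 158 and 152 CPM in knock-out. After NKG2D it measured 90.2, 95.6 and 107 CPM in wild-type libraries and 144, 103 and 88.0 CPM in knock-out. Fresh knock-out libraries were all above fresh wild-type ones, whereas the cultured groups overlapped. The genotype difference on the log2 scale was 0.38 in fresh (95% interval 0.04 to 0.72, adjusted p = 0.331), 0.34 in primed (95% interval 0.00043 to 0.69, adjusted p = 0.162) and 0.19 in NKG2D cells (95% interval -0.15 to 0.54, adjusted p = 0.458). None passed the threshold; in fresh cells it did when the 6 fresh libraries were fitted alone (adjusted p = 0.0405), and in primed cells with no filter on low counts (adjusted p = 0.0491). Priming lowered Hcst in both genotypes, by 1.06 in wild type (SE 0.164, adjusted p = 3.23e-05) and 1.10 in knock-out (SE 0.164, adjusted p = 2.75e-05) on the log2 scale. The difference between these falls was -0.04 with a 95% interval of -0.52 to 0.44. On NKG2D the change of Hcst in knock-out was -0.36 (adjusted p = 0.0917), which passed the threshold without NKG2D knock-out replicate 1 (adjusted p = 0.00721) or primed knock-out replicate 1 (adjusted p = 0.0348).

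Tyrobp showed the largest genotype differences among the 10 genes tested in primed cells. In fresh cells it measured 1290, 1386 and 1593 CPM in wild-type libraries and 1607, 1768 and 1944 CPM in knock-out. In primed cells the wild-type libraries held 766, 751 and 570 CPM and the knock-out libraries 285, 384 and 411 CPM. After NKG2D they held 729, 675 and 794 CPM, and 586, 358 and 376 CPM. Knock-out libraries were thus all the higher ones in fresh cells and all the lower ones in both cultured conditions, with NKG2D knock-out replicate 1 closest to wild type. Primed knock-out cells held 51.7% of the wild-type level (log2 difference -0.95, SE 0.180, adjusted p = 0.00175), and NKG2D knock-out cells 60.1% (log2 difference -0.73, SE 0.179, adjusted p = 0.00846). Both calls were kept in every alternative run, with log2 differences of -1.08 to -0.79 in primed and -0.997 to -0.629 in NKG2D cells. In fresh cells the log2 difference was 0.32 (95% interval -0.06 to 0.69, adjusted p = 0.48).

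Priming lowered Tyrobp by 1.03 (log2) in wild type (SE 0.180, adjusted p = 0.000113) and by 2.30 in knock-out (SE 0.187, adjusted p = 1.89e-08), leaving 48.9% and 20.3% of the fresh level. The difference of the responses was -1.27 (SE 0.253, adjusted p = 0.00483), past the threshold in all 17 alternatives, against 10.5% of all genes called in that comparison (4.08% higher, 6.41% lower). Of the 10 genes, Tyrobp and Klrk1 were the 2 called there, in opposite directions.

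**Figure D2:**
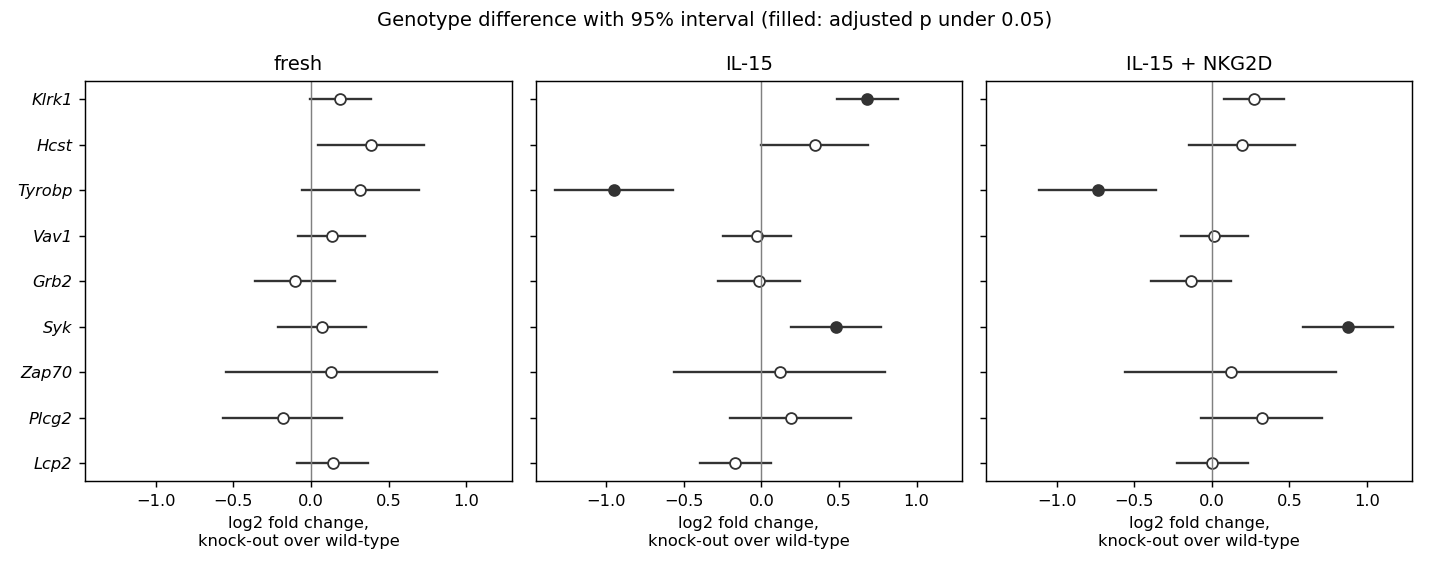
Log2 fold change of knock-out over wild-type libraries (horizontal axis) with its 95% interval for 9 of the 10 genes in fresh, primed and NKG2D cells; Plcg1 is left out for its wide intervals. Filled points passed an adjusted p of 0.05: Klrk1, Tyrobp and Syk in primed cells, Tyrobp and Syk after NKG2D.

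The balance of the 2 adaptors, taken as the ratio of CPM per kb within each library, was computed after their values had been seen and is given as a description. In fresh cells the ratio of Tyrobp to Hcst was 6.54 ± 0.762 in wild type and 6.21 ± 0.329 in knock-out. In primed cells it was 6.67 ± 0.275 in wild type and 2.70 ± 0.190 in knock-out, and after NKG2D 8.15 ± 0.558 and 4.27 ± 0.442. The primed and NKG2D knock-out libraries lay below all wild-type libraries (2.57 to 4.62 against 5.68 to 8.75), and the fresh genotypes overlapped. The ratio of Tyrobp to Klrk1 was 12.5 ± 1.15 and 13.8 ± 1.76 in fresh, 9.03 ± 0.663 and 2.91 ± 0.404 in primed, and 8.75 ± 0.455 and 4.44 ± 1.67 in NKG2D cells, wild type before knock-out. The absolute size of a ratio depends on the length used for each gene: with the longest coding transcripts, Tyrobp to Hcst was 4.56 in primed wild type and 1.85 in primed knock-out.

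**Figure D3:**
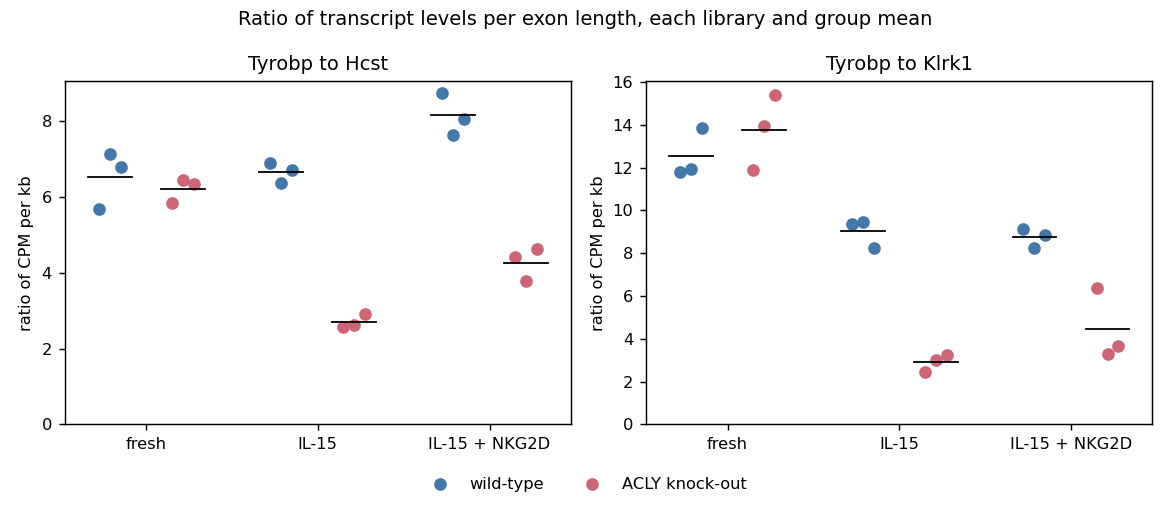
Ratio of transcript levels per exon length within each library (vertical axes, linear, from 0) for Tyrobp to Hcst and for Tyrobp to Klrk1; points are libraries, lines group means. In primed cells the Tyrobp to Hcst ratio of the knock-out libraries lay between 2.57 and 2.92 and that of the wild-type libraries between 6.37 and 6.91.

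Syk (chr13:52583173-52648792, plus strand) and Zap70 (chr1:36761798-36782818, plus strand) encode the related kinases that dock on the ITAM of DAP12. Syk measured 75.0, 92.0 and 98.0 CPM in fresh wild type and 92.0, 91.4 and 94.6 CPM in fresh knock-out. In primed cells it measured 32.5, 27.8 and 26.5 CPM in wild-type libraries and 37.3, 43.7 and 40.0 CPM in knock-out. After NKG2D it measured 34.5, 30.2 and 31.7 CPM in wild-type libraries and 71.5, 48.7 and 57.0 CPM in knock-out. The genotypes overlapped in fresh cells and were apart in both cultured conditions. After NKG2D the knock-out level was 1.84-fold that of wild type (log2 difference 0.88, SE 0.137, adjusted p = 0.000338), a call kept in all 11 alternatives. In primed cells the log2 difference was 0.48 (SE 0.137, adjusted p = 0.0242). That call was lost without wild-type replicate 2, wild-type replicate 3 or knock-out replicate 2, and without both primed libraries that stand apart, with an adjusted p of at most 0.0921.

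Priming lowered Syk in both genotypes, by 1.61 in wild type (SE 0.139, adjusted p = 3.66e-08) and 1.20 in knock-out (SE 0.138, adjusted p = 1.5e-06) on the log2 scale. The difference of these falls, 0.41 (95% interval 0.01 to 0.82), had an adjusted p of 0.184. From primed to NKG2D cells Syk rose in knock-out by 0.55 (SE 0.137, adjusted p = 0.00453), and in wild type the log2 change was 0.15 (95% interval -0.14 to 0.44, adjusted p = 0.482). Here too the difference between genotypes, 0.40 (95% interval -0.01 to 0.80, adjusted p = 0.29), did not pass the threshold, so the responses to NKG2D were not shown to differ.

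Zap70 was the most variable of the well-expressed genes. It measured 243 to 306 CPM in the 6 fresh libraries, where wild type held 243, 254 and 290 CPM and knock-out 285, 271 and 306 CPM. In primed wild type it held 168, 98.2 and 246 CPM, and in NKG2D wild type 246, 235 and 84.9 CPM. Primed knock-out libraries held 148, 189 and 220 CPM and NKG2D knock-out libraries 259, 171 and 187 CPM. The wild-type spread within a cultured group was as wide as the distance between conditions, and no comparison called Zap70. Its genotype differences were 0.13, 0.12 and 0.12 on the log2 scale with SE of 0.322, 0.323 and 0.322. Its change on priming was -0.62 in wild type (adjusted p = 0.116) and -0.63 in knock-out (adjusted p = 0.117), and the first passed the threshold without primed wild-type replicate 3 (-0.97, adjusted p = 0.022). With no filter on low counts both passed it (adjusted p of 0.000447 and 0.000469).

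Vav1 (chr17:57279100-57328031, plus strand), the exchange factor that activates Rac, had no genotype difference past the threshold. It ran from 161 to 195 CPM in fresh libraries, from 131 to 150 CPM in primed ones and from 135 to 187 CPM after NKG2D, with overlapping genotypes in each condition. Its genotype differences were 0.13, -0.03 and 0.02 on the log2 scale, with 95% intervals that lay within -0.25 and 0.35. Priming lowered it by 0.42 in knock-out (SE 0.104, adjusted p = 0.00305). The fall of 0.25 in wild type (SE 0.103, adjusted p = 0.0465) was lost in 8 of 11 alternatives, including the omission of any 1 of the 6 libraries (adjusted p of at most 0.173). On NKG2D the change in knock-out, 0.17 (adjusted p = 0.223), passed the threshold without NKG2D knock-out replicate 2 (0.31, adjusted p = 0.0265).

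Grb2 (chr11:115644045-115708597, minus strand) encodes the adaptor that joins DAP10 to Vav1. It measured 40.7 to 51.9 CPM in fresh, 23.4 to 28.6 CPM in primed and 25.9 to 33.8 CPM in NKG2D libraries, with genotypes overlapping each time. Priming lowered it by 0.83 in wild type (SE 0.124, adjusted p = 2.3e-05) and 0.74 in knock-out (SE 0.124, adjusted p = 9.49e-05). No genotype difference was called (log2 differences -0.11, -0.02 and -0.13).

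Lcp2 (chr11:34046920-34092295, plus strand) encodes SLP-76, the scaffold that brings Vav1 and phospholipase C together, and was the 1 gene of the 10 that rose on priming. In wild type it measured 311, 286 and 300.2 CPM fresh, 453, 442 and 383 CPM primed, and 314, 262 and 271 CPM after NKG2D. In knock-out it measured 313, 342 and 333 CPM fresh, 327, 386 and 425 CPM primed, and 312, 263 and 275 CPM after NKG2D. In wild type each primed library was above each fresh and NKG2D library, whereas in knock-out the primed and fresh libraries overlapped. After NKG2D, 2 of 3 wild-type libraries and all 3 knock-out libraries lay below the fresh libraries of their genotype. It rose by 0.51 in wild type (SE 0.108, adjusted p = 0.000726), while the change in knock-out was 0.20 (95% interval -0.02 to 0.43, adjusted p = 0.13; 0.36 with adjusted p = 0.0146 without primed knock-out replicate 1). From primed to NKG2D cells it fell in both genotypes, by 0.59 in wild type (SE 0.108, adjusted p = 0.000756) and 0.42 in knock-out (SE 0.108, adjusted p = 0.0057). No genotype difference was called.

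The phospholipases hydrolyse PIP2 to start the calcium signal, and in these cells nearly all of their transcript was Plcg2 (chr8:117498291-117635142, plus strand). Plcg2 measured 92.2, 103 and 112 CPM in fresh wild type and 99.9, 89.7 and 81.5 CPM in fresh knock-out. In primed cells it measured 40.1, 34.0 and 54.9 CPM in wild-type libraries and 44.9, 59.5 and 42.7 CPM in knock-out, and after NKG2D 40.8, 28.9 and 28.0 CPM and 36.2, 39.4 and 46.8 CPM. Genotypes overlapped in all 3 conditions, and both fell with culture. Priming lowered Plcg2 by 1.25 in wild type (SE 0.186, adjusted p = 2.19e-05) and 0.88 in knock-out (SE 0.185, adjusted p = 0.000782), with a difference of 0.37 (95% interval -0.18 to 0.92, adjusted p = 0.389). On NKG2D its change in wild type was -0.40 (adjusted p = 0.145), and -0.59 without NKG2D wild-type replicate 1 (adjusted p = 0.0473).

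Plcg1 (chr2:160731300-160775760, plus strand) had 8 to 36 reads per library and 0 in primed knock-out replicate 1, where 0 reads allow up to 0.201 CPM. Its CPM ranged from 0.326 to 1.68 in the other 17 libraries, per exon length at least 65.7 times below Plcg2 in each of them. Genotype differences of Plcg1 were not detectable at this depth: the intervals reached from -1.91 to 0.72 in fresh cells and were wider in culture. On priming each primed library was below each fresh library of its genotype, with log2 changes of -1.21 in wild type (adjusted p = 0.121) and -1.35 in knock-out (adjusted p = 0.107). The wild-type change passed the threshold when the 6 libraries were fitted alone (adjusted p = 0.0179). The gene overlaps Zhx3 on the other strand, and reads of the 2 genes cannot be told apart where counting ignores strand.

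Across conditions, most of the 10 genes were lower in primed than in fresh cells in both genotypes, where IL-15 and culture cannot be told apart. In wild type 7 fell and 1, Lcp2, rose, 8 of 10 against 53.7% of all genes tested (26.5% higher, 27.2% lower). In knock-out 6 fell, against 48.7% of all genes (23.0% higher, 25.7% lower). The median log2 change of the 10 genes was -0.93 in wild type and -0.81 in knock-out, and that of all genes was -0.06 in both. The comparisons of the 2 genotypes use different libraries, but both come from 1 fit over all 18 libraries with a shared estimate of spread. The fall of Hcst, Tyrobp, Vav1, Grb2, Syk and Plcg2 was called in each. Of these the wild-type fall of Vav1 was the fragile one.

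The step on plate-bound NKG2D after priming was followed by fewer changes. In wild-type cells Lcp2 was the 1 gene called, lower, against 19.9% of all genes (9.2% higher, 10.7% lower). In knock-out cells Lcp2 and Klrk1 were lower and Syk higher, 3 of 10 against 35.3% of all genes (18.4% higher, 16.9% lower). For none of the 10 genes did edgeR call a different response between genotypes, against 3.55% of all genes (1.49% higher, 2.07% lower). Only 1, Klrk1, had an unadjusted p under the threshold (log2 difference of responses -0.41, SE 0.131, adjusted p = 0.0982), as did 2712 of all 14864 genes. DESeq2 called Klrk1 (adjusted p = 0.0145), against 6.84% of all genes. The primed libraries are the reference of the NKG2D comparisons and also enter the priming comparisons, so opposite signs for a gene in the 2 steps share those libraries.

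**Figure D4:**
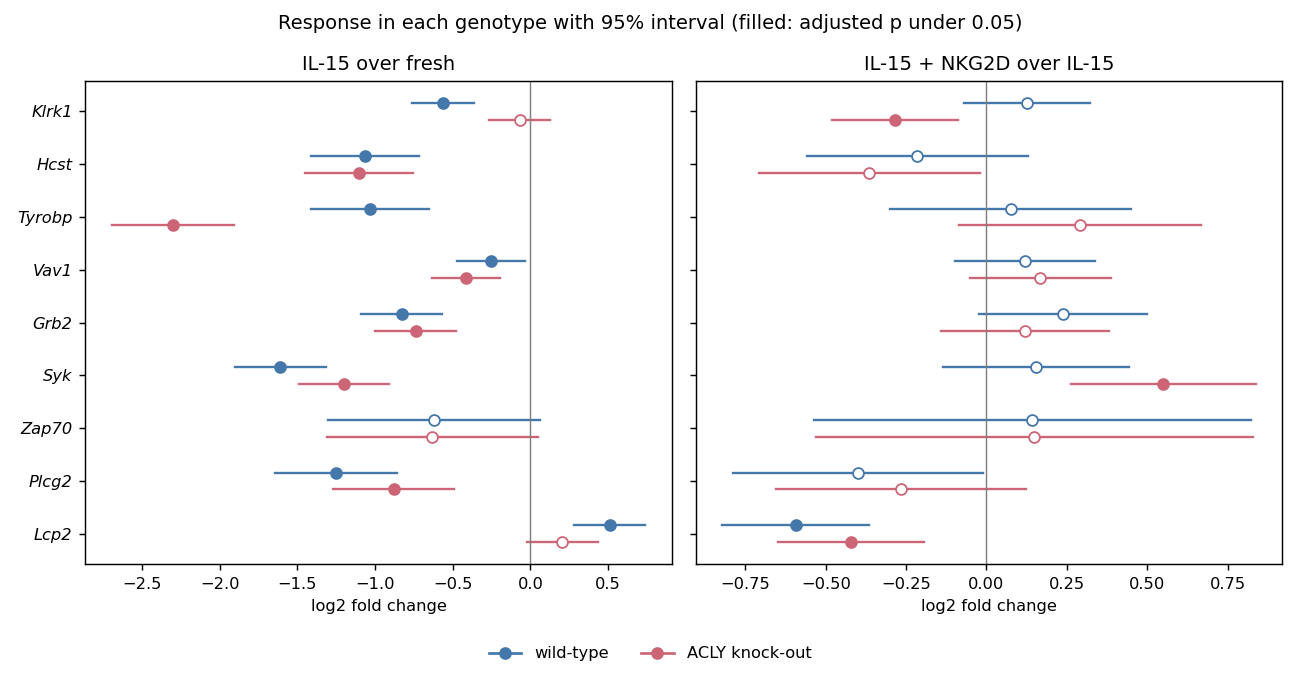
Log2 fold change (horizontal axes) with 95% interval for 9 of the 10 genes on IL-15 priming (left) and on NKG2D after priming (right), wild type in blue and knock-out in red; filled points passed an adjusted p of 0.05. On priming Tyrobp fell by 1.03 in wild type and 2.30 in knock-out, and Klrk1 by 0.56 in wild type.

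Other genes of the pathway were read from 8 lists with 107 genes, of which 102 were in the table and 98 could be tested. In fresh cells 0 of the 98 were called between genotypes by edgeR, against 0.0673% of all genes. Of the 98, 14 had an unadjusted p under the threshold, as did 1903 of all 14864 genes. DESeq2 called 1 of the 98, against 0.922% of all genes. These counts are not read as a result about the pathway. In primed cells 6 were higher and 13 lower in knock-out, where 7.0% and 8.52% of all genes were; over the alternatives 2 to 8 were higher and 5 to 16 lower. After NKG2D 16 were higher and 7 lower, where 8.75% and 9.47% of all genes were; over the alternatives 7 to 17 were higher and 4 to 16 lower. On priming 9 rose and 53 fell in wild type, where 26.5% and 27.2% of all genes did. In knock-out 4 rose and 61 fell, where 23.0% and 25.7% of all genes did. Over the alternatives 6 to 11 rose and 45 to 56 fell in wild type, and 2 to 7 rose and 55 to 61 fell in knock-out. The medians of the 98 genes were -0.50 and -0.53 on priming, against -0.06 for all genes in both.

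Of 18 genes on the list of calcium and protein kinase C steps, 16 were lower after priming in each genotype and 0 were higher. Among all genes 27.2% were lower in wild type and 25.7% in knock-out, and 26.5% and 23.0% were higher. The median log2 changes of the list were -0.92 and -0.80, and it was chosen with earlier results of these data known. After NKG2D 6 of the 18 were higher in knock-out than in wild type and 1 was lower, against 8.75% and 9.47% of all genes, and 3 to 7 were higher and 0 to 2 lower over the alternatives. Prkcq, which encodes protein kinase C theta, stood at 50.1 ± 0.794 CPM in wild-type libraries and 71.9 ± 4.73 CPM in knock-out (log2 difference 0.52, SE 0.103, adjusted p = 0.00211). Nfatc2, a transcription factor that calcium activates, stood at 8.53 ± 0.825 and 13.5 ± 2.22 CPM (log2 difference 0.67, SE 0.153, adjusted p = 0.00576).

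Of 13 phosphatases and ubiquitin ligases that can restrain the pathway, 6 were lower in primed knock-out cells than in wild type, 0 were higher and 7 did not pass the test, against 8.52% of all genes lower. Over the alternatives 3 to 6 were lower, and the list was chosen with earlier results of these data known. Ubash3b, a phosphatase that acts on Syk-family kinases, measured 149 ± 12.1 CPM in wild-type libraries and 103 ± 0.779 CPM in knock-out (log2 difference -0.54, SE 0.0755, adjusted p = 0.000155). Its relative Ubash3a measured 19.6 ± 1.67 and 9.97 ± 0.969 CPM (log2 difference -0.97, SE 0.145, adjusted p = 0.000248). After NKG2D 1 of the 13 was called, Ubash3a, again lower (log2 difference -0.67, SE 0.150, adjusted p = 0.00492; lost when the 6 libraries were fitted alone).

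Among the Src and Tec family kinases, Fgr was lower in both cultured conditions. It measured 69.8 ± 3.67 CPM in primed wild type and 37.0 ± 1.95 CPM in primed knock-out (log2 difference -0.92, SE 0.131, adjusted p = 0.000167), and after NKG2D 59.6 ± 10.2 and 29.5 ± 4.27 CPM (log2 difference -1.02, SE 0.131, adjusted p = 6.37e-05). Yes1 was called higher and Btk lower in primed knock-out cells, both under 1 CPM in both genotypes.

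In the PI3-kinase arm, to which DAP10 connects, Pik3r1 was lower in knock-out. This regulatory subunit measured 232 ± 11.6 CPM in primed wild type and 160.0 ± 7.12 CPM in primed knock-out (log2 difference -0.54, SE 0.0997, adjusted p = 0.00152), and 220 ± 19.6 and 167 ± 17.9 CPM after NKG2D (log2 difference -0.40, SE 0.0994, adjusted p = 0.01; lost in 2 of 11 alternatives, 1 of them without NKG2D wild-type replicate 2). Pik3cg, a catalytic subunit, was higher after NKG2D (log2 difference 0.52, SE 0.101, adjusted p = 0.002). Pdpk1 was also higher there (log2 difference 0.69, adjusted p = 0.0211), a call lost in 4 of 11 alternatives, 3 of them without NKG2D wild-type replicate 3 or knock-out replicate 2 or 3.

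Of the other adaptors and scaffolds, Crkl was higher in knock-out in primed cells (log2 difference 0.69, SE 0.135, adjusted p = 0.00237) and after NKG2D (0.57, SE 0.135, adjusted p = 0.00732; adjusted p = 0.0552 without NKG2D knock-out replicate 3). Gab3 was higher after NKG2D (0.52, SE 0.0966, adjusted p = 0.00132), and its primed call (0.31, adjusted p = 0.0366) was lost in 9 of 12 alternatives, any 1 of 5 libraries left out among them. Fyb, which binds SLP-76, was lower after NKG2D (-0.42, SE 0.0881, adjusted p = 0.00337). Sh2d1b1, the adaptor EAT-2, was lower in primed cells (-0.44, adjusted p = 0.0305; lost in 8 of 12 alternatives, 4 of them single libraries).

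Rasgrp1, an activator of Ras, was lower in knock-out in primed cells (log2 difference -0.76, SE 0.175, adjusted p = 0.0072; lost when the 6 libraries were fitted alone) and after NKG2D (-0.61, adjusted p = 0.0232; lost in 5 of 11 alternatives, all of them single libraries). Wasf2, which drives branching of actin, was higher after NKG2D (0.68, SE 0.158, adjusted p = 0.006). Dock2, Rhoa, Ppp3ca, Braf and Mapk3 were also called in 1 or both cultured conditions, each losing its call in 2 to 7 alternatives, single libraries included except for Mapk3 in primed cells, with an adjusted p of at most 0.157. Mapk3 was lower in primed knock-out cells (-0.63, adjusted p = 0.00863) and higher after NKG2D (0.45, adjusted p = 0.0424).

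**Figure D5:**
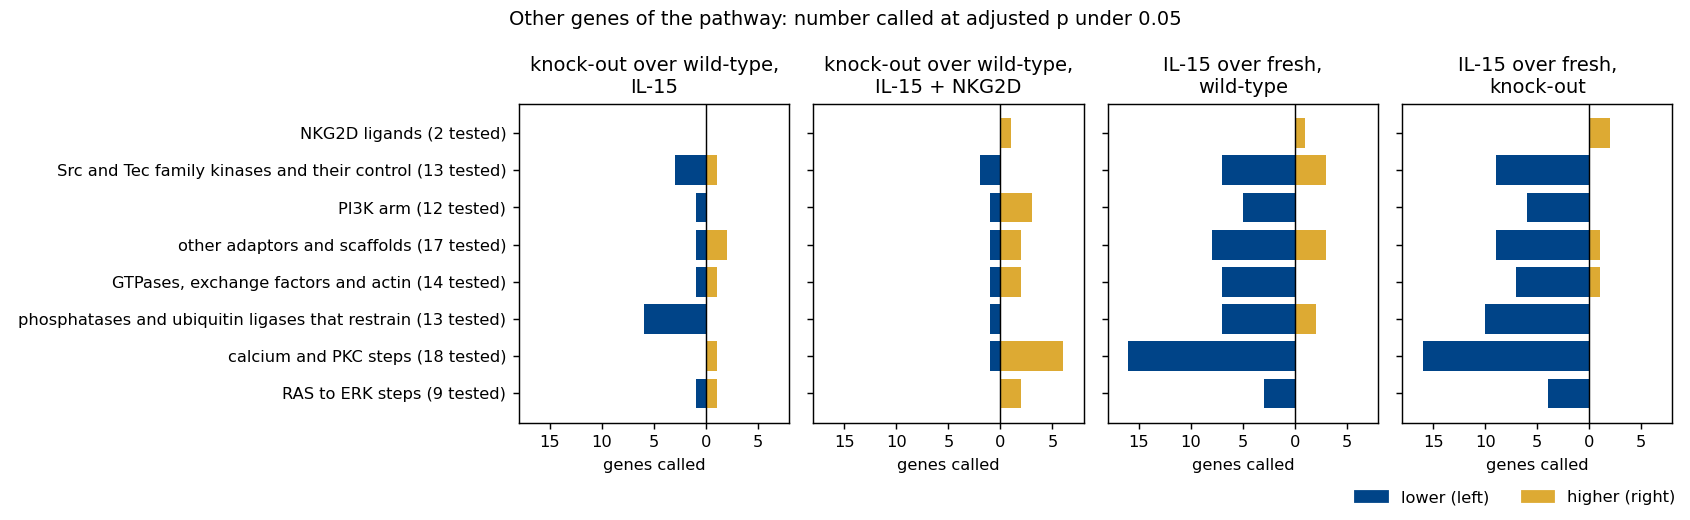
Number of genes called at an adjusted p under 0.05 (horizontal axis; lower to the left, higher to the right of 0) in 8 lists of other pathway genes, with the number tested beside each name, for 4 comparisons. The calcium and protein kinase C list has 16 of 18 genes lower on priming in each genotype. Of all genes tested, 27.2% were lower in wild type and 25.7% in knock-out.

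NK cells can also carry ligands of their own receptor. Of 9 mouse NKG2D ligand genes listed, 5 were in the table and 2, Ulbp1 (MULT1) and Raet1d, were tested. Ulbp1 measured 7.71, 9.20 and 6.28 CPM in fresh wild type and 8.71, 5.80 and 9.18 CPM in fresh knock-out. It measured 26.5, 31.4 and 27.2 CPM in primed wild type and 29.3, 43.5 and 42.5 CPM in primed knock-out, and after NKG2D 35.5, 33.3 and 35.2 CPM and 58.8, 52.4 and 59.3 CPM. It was thus low in every fresh library and highest in the NKG2D knock-out ones. Priming raised it by 1.87 in wild type (SE 0.187, adjusted p = 2.2e-07) and 2.28 in knock-out (SE 0.188, adjusted p = 2.38e-08). After NKG2D the knock-out was higher (log2 difference 0.71, SE 0.177, adjusted p = 0.00959). In primed cells the log2 difference was 0.44 (adjusted p = 0.103), and 0.62 without primed knock-out replicate 1 (adjusted p = 0.0302). Raet1d was at most 2.17 CPM in any library. It was called higher on priming in knock-out (log2 change 3.02, SE 0.99, adjusted p = 0.0181), where the primed libraries held 0, 2.17 and 0.962 CPM and the fresh ones 0.0907, 0.05 and 0.217 CPM. That call was lost in 4 of 10 alternatives, 3 of them without fresh knock-out replicate 1 or 2 or primed knock-out replicate 2 (adjusted p of at most 0.138).

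The labelled cell type was checked against markers of other cells. The 8 B cell markers summed to 9.24 to 12.7 CPM in fresh libraries and at most 5.48 CPM in cultured ones, where Ms4a1 was at 0. The 9 monocyte and macrophage markers summed to 425 to 1087 CPM, mostly Ccr2, with Lyz2 at 4.76 and 2.56 CPM in fresh wild type and knock-out and at 0 in every cultured library. The 8 neutrophil markers summed to at most 2.35 CPM. The 9 T cell markers summed to 132 to 340 CPM, mostly Cd28, and Cd8a or Cd8b1 was at 0 in each cultured group. Among them Cd3g and Cd3d were lower in cultured knock-out cells, as Tyrobp was, whereas Cd3e and Cd28 were higher. Cd3g had a mean of 32.0 CPM in primed wild type and 10.4 CPM in primed knock-out, and 27.2 and 10.6 CPM after NKG2D. Cd3d had 11.2 and 5.67 CPM in primed cells and 8.16 and 3.60 CPM after NKG2D, where Cd6 had 25.1 and 8.93 CPM. Cd28 was higher in knock-out, with 115 and 157 CPM in primed cells and 196 and 297 CPM after NKG2D. Cd3e had a mean of 0.573 CPM in primed wild type and 2.03 CPM in primed knock-out. After NKG2D its means were 0.91 and 1.14 CPM, and the libraries overlapped. The part of these markers in the results was not tested.

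B cell markers thus moved down with priming, as did Syk and Plcg2, which B cells also express; in fresh wild-type cells their sum was 10.4 CPM beside 88.3 CPM of Syk and 103 CPM of Plcg2, and their part in the result was not tested. Of the monocyte markers, Lyz2 and Csf1r went down with Tyrobp on priming, with Csf1r at 4.30 CPM in fresh wild type and at most 0.111 CPM in the mean of a cultured group, while Ccr2 and Cd68 went up in both genotypes and Cd14 went up in wild type (1.08 to 1.51 CPM). In primed and NKG2D cells, where Tyrobp and Syk differed between genotypes, Ms4a1 and Lyz2 were at 0 in both genotypes, but other monocyte markers differed. Cd14 had a mean of 1.51 CPM in primed wild type and 0.197 CPM in primed knock-out, and 1.75 and 0.476 CPM after NKG2D, lower in knock-out as Tyrobp was. Cd68 had a mean of 56.7 and 39.2 CPM in primed cells and 58.2 and 96.8 CPM after NKG2D. Ccr2, most of this list's sum, went opposite to Tyrobp in primed cells, where every knock-out library exceeded every wild-type one. Its primed mean was 875 CPM (wild type) against 1018 CPM (knock-out). After NKG2D its means were 755 and 710.5 CPM, with overlapping libraries. The part of these monocyte markers in the results was not tested. Red cell markers summed to 115 to 201 CPM in fresh wild type and 16.4 to 18.1 CPM in fresh knock-out, in the condition where none of the 10 genes was called.

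Genes whose log2 CPM ran most nearly in parallel with the receptor and adaptors were looked for among 7633 genes over the 18 libraries. For Klrk1 these were Serpini1, Slfn10-ps and Epc1 (Pearson r of 0.94, 0.94 and 0.92). For Hcst they were Septin1, Acp5 and Cdc42se1 (0.97, 0.97 and 0.96), and for Tyrobp Dctn6, Unc119 and Stat4 (0.98, 0.97 and 0.97). The 18 libraries fall into 6 groups, so these values mostly follow the group means, and no p is given.

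The authors' deposited table of comparisons lists all 10 genes between genotypes and calls more of them, as it does of all genes. In fresh cells the authors' deposited table calls 2, Hcst (log2 fold change 0.418, adjusted p = 0.00487) and Tyrobp (0.298, adjusted p = 0.0386), against 14.3% of its genes. In primed cells the authors' deposited table calls 4 against 31.2%, namely Klrk1 (0.726), Tyrobp (-0.8725), Syk (0.5451) and Hcst (0.4257). After NKG2D the authors' deposited table calls 4 against 45.5%, namely Tyrobp (-0.872), Syk (0.832), Klrk1 (0.323) and Plcg2 (0.521). All genes that edgeR called here between genotypes have the same direction and are called in the authors' deposited table, which adds Hcst in fresh and primed cells, Tyrobp in fresh cells, and Klrk1 and Plcg2 after NKG2D.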

How the data were processed

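The table deposited by the authors holds expected counts (reads assigned to a gene by estimation, with no scaling for depth); 30.0% of the values above 0 are not whole, so they were rounded to whole numbers for the count test. The tools were edgeR, DRAGEN and bcl2fastq and the build mm10, per the submitters' processing notes; for versions, counting settings and strand handling, the sources used here say nothing. The reads carry no molecular identifiers. RNA was amplified with a SMARTer kit, per the labels. Of 55774 rows, 168 identifiers occur more than once with the same values, and 1 was kept. The authors also deposited comparison tables with log2 fold changes and p-values, raw and adjusted; per the file headers their column names are those limma writes. The 54 per-sample columns of these tables were not used.

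Counts were tested with the quasi-likelihood test of edgeR 4.0.16 (R 4.3.3), with TMM factors, the edgeR expression filter and 1 mean per group over all 18 libraries, giving 12 residual degrees of freedom. Benjamini-Hochberg adjustment ran over the 14864 genes of each of 9 comparisons, with 0.05 as the threshold. Differences of responses are interaction contrasts of the same fit. The fitting script was tested on simulated data. CPM values use the TMM-scaled library sizes, and means carry the SD over 3 libraries. Totals of 14772350 to 34367582 counts set the precision; the floor at 0 reads is 3 reads and covers counting error only. Exon lengths come from GENCODE M21 (GRCm38, the build of the files). Alternatives were DESeq2 1.42.0, RLE factors, no filter, the libraries of a comparison alone, a replicate block, leaving out each library, and, added after seeing the data, leaving out both primed libraries that stand apart. Ratios and the second length were also added after seeing the data.

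The 10 genes and all lists were chosen with earlier results of these data known. All 10 are named in each comparison; from each list of other pathway genes, up to 2 higher and 2 lower genes with the smallest p past the threshold are named per genotype comparison; for Klrk1, Hcst and Tyrobp the 3 genes with the highest r at a mean log2 CPM of at least 3 are named, leaving out unnamed gene models. Some genes that this rule names are not reported here.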

Additional observations from a re-analysis of the deposited data

Results flagged for a closer look

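The response to priming differed between genotypes, by a test of the difference itself, for 2 of the 10 genes. Of all genes, 10.5% were called in that comparison (4.08% higher, 6.41% lower). With 10 genes, 2 calls lie near that share, and the number called is not read as a result about the pathway. For Tyrobp the difference of the log2 changes was -1.27 (SE 0.253, adjusted p = 0.00483): the level fell by 1.03 in wild type and 2.30 in knock-out, with each primed library below each fresh library of its genotype. For Klrk1 the difference was 0.49 (SE 0.131, adjusted p = 0.0233): the level fell by 0.56 in wild type, and in knock-out the change was -0.07. The common biological coefficient of variation was 0.325 in primed libraries, against 0.162 in fresh ones, and its part in these results was not tested. Without primed knock-out replicate 1, the library of lowest depth, both differences remained past the threshold. The Tyrobp call was kept in all 17 alternatives, whereas the Klrk1 call was lost in 6 of 17 (adjusted p of at most 0.0706).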

How the results depend on the processing

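Each comparison was refitted under each alternative that applied to it. The number of the 10 genes called between genotypes in fresh cells was 0, and 1 with the libraries of the comparison alone. The number whose priming response differed was 2, 1 with the replicate block and 1 to 2 with each library left out; the lost gene was Klrk1. For the NKG2D response it was 0, and 1 with DESeq2. For NKG2D against primed wild type it was 1, and 1 to 2 with each library left out.

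Changes of sign were limited to log2 values that never passed the threshold. In primed cells Vav1 was 0.0068 with no filter, 0.024 with both primed libraries left out and -0.067 to 0.034 with each library left out, and Grb2 was 0.00035 with DESeq2, 0.0013 with RLE factors, 0.023 with no filter, 0.014 alone and -0.066 to 0.058. Between genotypes after NKG2D, Lcp2 was -0.010 with DESeq2, -0.0100 with RLE factors, -0.00049 alone and -0.071 to 0.085. For NKG2D against primed wild type, Tyrobp was -0.068 with both left out and -0.051 to 0.13. The Zap70 priming response was 0.011 with DESeq2, 0.010 with RLE factors, 9.97e-06 alone, 0.0056 with the replicate block and -0.26 to 0.34. The Zap70 NKG2D response was -0.021 with DESeq2, -0.021 with RLE factors, -0.022 with no filter, -0.013 with the replicate block and -0.35 to 0.28. With each library left out alone, ranges that crossed 0 were, between genotypes, -0.033 to 0.16 for Syk and -0.11 to 0.20 for Ulbp1 in fresh cells, -0.14 to 0.48 for Zap70 in primed cells, and after NKG2D -0.032 to 0.33 for Hcst, -0.12 to 0.093 for Vav1 and -0.22 to 0.36 for Zap70. For priming in knock-out the range for Klrk1 was -0.098 to 0.031, and for NKG2D against primed cells that for Zap70 was -0.14 to 0.50 in wild type and -0.052 to 0.31 in knock-out. For the priming response they were -0.18 to 0.11 for Hcst and -0.52 to 0.41 for Plcg1, and for the NKG2D response -0.044 to 0.34 for Tyrobp, -0.093 to 0.13 for Vav1, -0.37 to 0.64 for Plcg1 and -0.081 to 0.33 for Plcg2.

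The replicate numbers were not shown to pair the libraries: deviations of same-numbered libraries correlated at -0.438 to 0.269, and in no comparison did every pair exceed 0.1. Of all genes, the count called in fresh cells was 10, against 137 with DESeq2, 564 with no filter and 780 alone; that of primed cells was 2307 against 1128 alone; that of NKG2D against primed knock-out 5248 against 3450 alone; that of the priming response 1559 against 972 with the block; and that of the NKG2D response 528 against 1016 with DESeq2, 887 with no filter, 203 alone and 250 with the block. With each library left out, the all-gene count was 5 to 12 in fresh cells (lowest without knock-out replicate 3), 1357 to 2589 in primed cells (8.79% of genes at the lowest, when wild-type replicate 2 is left out, and 1503 when replicate 1 is), 1643 to 3051 after NKG2D (lowest, 10.7%, without knock-out replicate 3), 842 to 2453 for the priming response (lowest without primed wild-type replicate 2, highest without primed wild-type replicate 3) and 242 to 598 for the NKG2D response (lowest without NKG2D wild-type replicate 1). The shares of all genes beside the member counts move with these, and the cause was not tested. Depth limits Plcg1, with at most 36 reads in a library.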
